A study of Mus musculus with 12 samples.

Results

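Maternal subcortical complex genes encode a protein assembly that the egg builds and leaves to the early embryo, and 9 of the 53715 genes in the deposited tables were chosen by exact gene name: Nlrp5, Ooep, Tle6, Khdc3, Padi6, Zbed3, Nlrp4f, Nlrp14 and Zar1. Their levels were read first in mouse embryos and then beside them in mouse embryonic stem (mES) cells, over 12 RNA-seq libraries in 6 groups of 2. The embryo groups were C57BL/6J embryos given CX-5461, which inhibits RNA polymerase I, and untreated control embryos, which the study describes as morulae grown to blastocysts and sequenced from amplified cDNA, a few embryos pooled per sample. The mES groups were ICM-derived ES cells, of the E14 line per the methods, treated with CX-5461, with rapamycin (an mTOR inhibitor) or with rotenone (an inhibitor of respiratory complex I), and untreated control mES cells. Per the methods, mES cells were grown on fibroblast feeder cells in LIF/2i medium, and poly-A RNA was sequenced. The paper describes feeder removal for flow cytometry and electron microscopy, and its bulk RNA-seq methods name no such step. The study used these samples to ask how a block of ribosomal RNA synthesis changes the transcriptome in each setting.

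The subcortical maternal complex lies beneath the cortex of the mouse egg and of the outer side of early blastomeres, and embryos from mothers that lack one of its core proteins commonly arrest in early cleavage. Its RNAs are made in the growing oocyte and are largely cleared as the embryonic genome takes over, while its proteins last into later cleavage. Nlrp5 (MATER), Ooep (FLOPED), Tle6 and Khdc3 (FILIA) are core subunits, Padi6, Zbed3 and Nlrp4f are associated proteins, Nlrp14 is an oocyte relative of Nlrp5 needed for female fertility in the mouse, and Zar1 is an oocyte RNA-binding protein needed around the first division.

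Promoter windows of Nlrp4f, Tle6, Ooep and Khdc3 are shown because the first 3 were called in CX-5461-treated mES cells, Nlrp4f and Tle6 higher and Ooep lower, and Khdc3 was the most abundant member in embryos. Each window is RefSeq sequence of build GRCm38.p6, from 250 bases before to 50 bases after a RefSeq start site, written 5′ to 3′ on the gene's strand. Capitals mark matches, on either strand, to the E-box CANNTG (with its special case CACGTG), to the NOBOX elements TAATTG and TAATTA, to TATAAA and to the DUX motif, where overlapping matches run together. The windows are Nlrp4f at chr13:65205667-65205966 (minus strand), Tle6 at chr10:81600851-81601150 (minus), Ooep at chr9:78378539-78378838 (minus) and Khdc3 at chr9:73102148-73102447 (plus), and their start sites lie 261, 173, 137 and 562 bases inside the outermost GENCODE gene start in that order.
Nlrp4f: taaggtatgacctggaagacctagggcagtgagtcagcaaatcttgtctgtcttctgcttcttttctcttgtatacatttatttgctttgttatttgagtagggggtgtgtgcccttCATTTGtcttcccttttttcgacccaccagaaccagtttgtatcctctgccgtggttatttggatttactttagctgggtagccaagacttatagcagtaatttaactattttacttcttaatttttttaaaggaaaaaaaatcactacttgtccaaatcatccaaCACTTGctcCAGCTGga
Tle6: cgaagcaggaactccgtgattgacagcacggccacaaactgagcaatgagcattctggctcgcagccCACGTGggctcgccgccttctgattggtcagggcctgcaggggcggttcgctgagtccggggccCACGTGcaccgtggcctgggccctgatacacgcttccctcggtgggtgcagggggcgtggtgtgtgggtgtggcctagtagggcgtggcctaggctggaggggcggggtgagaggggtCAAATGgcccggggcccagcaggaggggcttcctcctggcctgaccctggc
Ooep: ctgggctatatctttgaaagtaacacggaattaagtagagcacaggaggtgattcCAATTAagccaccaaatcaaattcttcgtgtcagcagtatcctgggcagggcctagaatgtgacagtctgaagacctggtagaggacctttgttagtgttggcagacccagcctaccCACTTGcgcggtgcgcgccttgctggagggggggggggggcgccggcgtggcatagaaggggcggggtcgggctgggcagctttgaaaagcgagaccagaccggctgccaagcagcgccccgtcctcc
Khdc3: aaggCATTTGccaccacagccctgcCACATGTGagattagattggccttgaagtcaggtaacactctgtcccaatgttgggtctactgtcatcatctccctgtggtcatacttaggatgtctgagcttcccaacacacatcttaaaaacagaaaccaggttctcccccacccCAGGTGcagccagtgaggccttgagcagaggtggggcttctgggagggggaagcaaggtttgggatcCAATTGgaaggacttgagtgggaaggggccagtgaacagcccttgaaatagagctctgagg

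A window was present for 8 of the 9 members, all but Nlrp14, which was also called higher in those cells, and the window nearest the GENCODE start was read for each. CANNTG was found in 8 of 8, beside 72.3% of all 32851 promoters of 300 bases. CACGTG was found in 1 of 8 (Tle6, 2 matches, starting at -183 and -119), beside 7.15% of all promoters. TAATTG was found in 2 of 8 (Ooep at -195 and Padi6 at 8), beside 8% of all promoters, and TAATTA in 1 of 8 (Nlrp5 at -189), beside 5.29%. TATAAA and the DUX motif were in 0 of 8 windows, beside 13.6% and 0.0335% of all promoters. Positions count from the start site, and a match is a run of letters and not a shown binding site.

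Levels are in TPM (transcripts per 1000000, a length-scaled share of a library's RNA), after each library was scaled to a total of 1000000. Deposited totals were 999805 to 999914 except in embryo control 1, at 639063, so that library's values were multiplied by 1.565. Why this total was lower is not known, and whether the scaling suits every gene was not tested. Khdc3 in that library, for example, was at 541 TPM as deposited and at 847 TPM after scaling. Genes that reached 1 TPM numbered 12397 to 13703 in embryo libraries and 14521 to 17104 in mES libraries. In embryos 9 of 9 trophectoderm markers, led by Krt18 and Krt8, and 9 of 9 pluripotency markers reached 1 TPM in at least 2 libraries. In mES cells 9 of 9 pluripotency markers and 8 of 9 trophectoderm markers did, so this level does not separate the 2 settings. The trophectoderm markers summed to 4500-6380 TPM in embryo libraries and 117.5-163.8 TPM in mES libraries. The pluripotency markers summed to 383-498 TPM in CX-5461 embryos, 743-754 TPM in control embryos and 3101-4792 TPM in mES libraries. In embryos 0 of 9 pluripotency markers were called, beside 0% of all genes called lower. CX-5461 embryo replicate 1 stood apart, with correlations across genes of 0.971 to 0.979 with the other embryo libraries, which correlated at 0.986 to 0.990 among themselves. Fibroblast markers (19 genes) summed to 3.06-7.13 TPM in CX-5461 embryos and 2.50-2.78 TPM in control embryos, and in mES cells to 3885-4039 TPM with CX-5461, 1552-1828 TPM with rapamycin, 3201-3521 TPM with rotenone and 842-1055 TPM in controls. In bulk samples fewer cells of a type and less RNA per cell cannot be told apart. TPM keeps no count of reads, so depth is unknown.

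In blastocyst-stage embryos the complex genes fell into 3 levels (embryo plot by library). Khdc3 stood at 439 to 942 TPM, Ooep at 41.3 to 66.6 TPM, and Nlrp4f, Tle6, Zbed3 and Padi6 at 1 to 14 TPM, while Nlrp5, Nlrp14 and Zar1 stayed under 1 TPM. Khdc3 alone made up 84.2% to 94% of the summed TPM of the 9 genes in each embryo library.

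**Figure D1:**
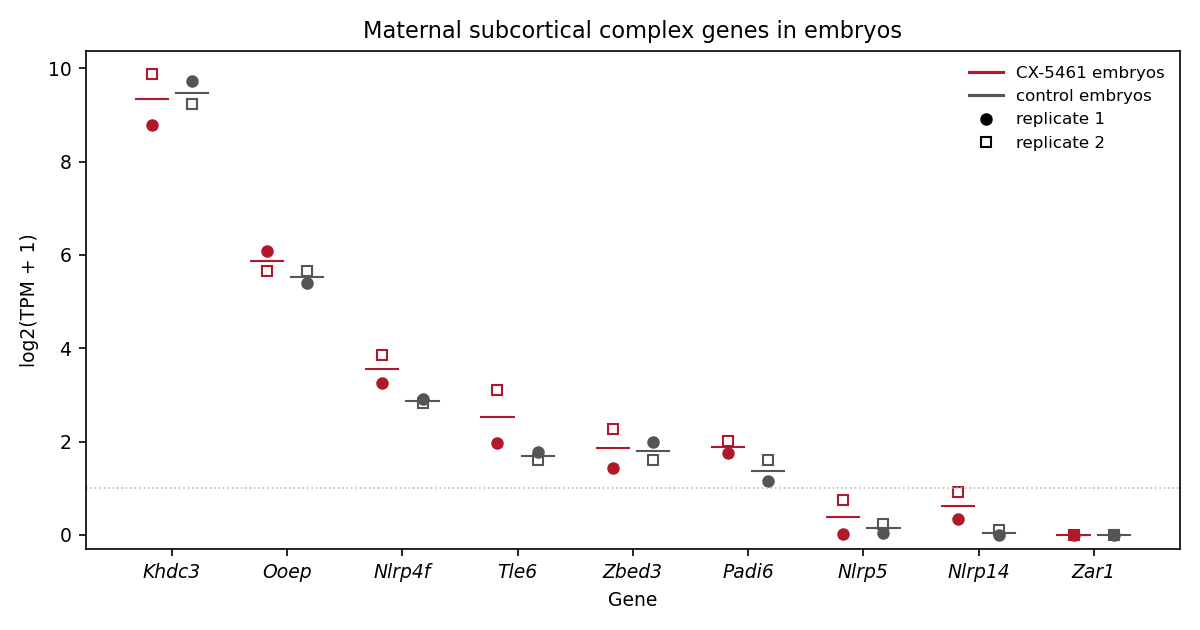
Levels of the 9 maternal subcortical complex genes in embryos, as log2(TPM + 1) per library, with CX-5461 embryos (red) left of control embryos (grey), filled circles for replicate 1, open squares for replicate 2, bars for the mean of the 2 libraries and a dotted line at 1 TPM. Khdc3 stands above the other genes in all 4 libraries, at 439 to 942 TPM, and Zar1 is at 0.

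Among the core subunits, Khdc3 (chr9:73101836-73104438, plus strand) encodes a KH-domain protein tied to genome stability in mouse embryos. It stood at 439 and 942 TPM in CX-5461 embryos, against 847 and 599 TPM in control embryos. The CX-5461 libraries were both the lowest and the highest of the 4, so the groups overlapped, and the level ranked 357 and 165 among all genes with CX-5461, against 186 and 274 in controls. The fitted log2 change was -0.15 (SE 0.39, limma, Benjamini-Hochberg adjusted p = 0.892). This value was decided by single libraries: without CX-5461 embryo replicate 2 it was -0.70 (adjusted p = 0.0248), and without CX-5461 embryo replicate 1 it was 0.40 (adjusted p = 0.454), in a range of adjusted p from 0.0248 to 1 over 13 alternatives. Of the 75-base words in Khdc3 exons, 31.3% also occur in the overlapping same-strand gene Gm20509, which was listed at 0 in all 4 embryo libraries.

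Ooep (chr9:78376109-78378725, minus strand), the other KH-domain subunit, is needed for the cytoplasmic lattices of the mouse egg. It was at 66.6 and 49.4 TPM in CX-5461 embryos, against 41.3 and 49.6 TPM in control embryos. One CX-5461 library lay above both controls and the other between them, and the log2 change was 0.34 (SE 0.29, adjusted p = 0.641). Tle6 (chr10:81590904-81601073, minus strand), a divergent member of the Groucho family of co-repressors, had 2.90 and 7.61 TPM in CX-5461 embryos, against 2.44 and 2.06 TPM in control embryos. Both CX-5461 libraries were above both controls, but they differed from each other 2.63-fold, and the log2 change of 0.84 (SE 0.42) had an adjusted p of 0.455. Nlrp5 (chr7:23385889-23441922, plus strand), the maternal antigen that the other core subunits assemble with, had 0.0155 and 0.671 TPM in CX-5461 embryos, against 0.0308 and 0.175 TPM in control embryos, and was under the level tested.

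Among the associated proteins, Nlrp4f (chr13:65177111-65205977, minus strand), an oocyte NLR protein of the complex, was at 8.58 and 13.5 TPM in CX-5461 embryos, against 6.58 and 6.05 TPM in control embryos. The groups did not overlap, and the log2 change was 0.69 (SE 0.32, 95% interval -0.07 to 1.45, adjusted p = 0.434). Padi6 (chr4:140727355-140742643, minus strand), a peptidylarginine deiminase family protein needed for egg lattices, had 2.36 and 3.03 TPM in CX-5461 embryos, against 1.22 and 2.04 TPM in control embryos. These groups did not overlap either (log2 change 0.50, SE 0.33, adjusted p = 0.543). Zbed3 (chr13:95323612-95337841, plus strand), a zinc finger protein also known to bind Axin, had 1.71 and 3.83 TPM in CX-5461 embryos, against 2.97 and 2.04 TPM in control embryos, where the groups overlapped (log2 change 0.06, SE 0.38, adjusted p = 0.961).

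Nlrp14 (chr7:107166990-107198102, plus strand) had 0.263 and 0.892 TPM in CX-5461 embryos, against 0 and 0.0694 TPM in control embryos, so both CX-5461 libraries were above both controls at levels under 1 TPM. Zar1 (chr5:72576806-72581254, minus strand) was listed at 0 in all 4 embryo libraries. Neither was tested, because a gene needed 1 TPM in at least 2 libraries of its table.

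Of the 6 members tested in embryos, 0 passed an adjusted p of 0.05 in limma in either direction, beside 0.00753% of 13289 genes called higher and 0% called lower with CX-5461. At an unadjusted p under 0.05 there were 0 of the 6 members and 1646 of all genes. Both CX-5461 libraries lay above both controls for 3 of the 6 (Nlrp4f, Tle6 and Padi6), beside 27.6% of all genes tested, and below both controls for 0 of the 6, beside 19.2%. The median log2 change was 0.42 over these 6 and 0.05 over all genes. Single libraries also moved the changes of the 5 members other than Khdc3 by over 1.5 times, with none of the 5 called when any 1 library was left out. Without CX-5461 replicate 1 the log2 change was 1.41 for Tle6, 0.99 for Nlrp4f, 0.12 for Ooep and 0.48 for Zbed3, and without CX-5461 replicate 2 it was 0.27 for Tle6, 0.39 for Nlrp4f, 0.55 for Ooep and -0.36 for Zbed3. For Padi6 it was 0.28 without control replicate 1 and 0.73 without control replicate 2. Within the CX-5461 group, 7 of the 9 members were higher in replicate 2 than in replicate 1, Ooep was lower and Zar1 was equal, while 53.6% of all genes tested were higher in replicate 2. In the control group the members split 4 to 4.

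Related genes of the embryo were looked at from lists of relatives. Of 10 other oocyte Nlrp genes 2 could be tested and 0 were called. Nlrp4c, like Nlrp4f of the mouse Nlrp4 group, was the most abundant at 19.6 and 50.03 TPM in CX-5461 embryos, against 31.2 and 41.3 TPM in control embryos, with the CX-5461 libraries on either side of both controls. Of 30 other oocyte and maternal genes 7 could be tested and 0 were called. Dppa3 (Stella), a maternal factor that protects DNA methylation in the zygote, averaged 10820 TPM in CX-5461 embryos and 6610 TPM in control embryos (log2 change 0.73, SE 0.24, adjusted p = 0.318). Patl2, which encodes an oocyte RNA-binding factor, was at 18.2 and 41.2 TPM in CX-5461 embryos, against 30.2 and 38.7 TPM in control embryos. Of 17 relatives of the members by family 10 could be tested and 0 were called, with Dppa5a, a KH-domain relative of Ooep, at 9015 and 7128 TPM in CX-5461 embryos, against 6918 and 6151 TPM in control embryos. Cumulus and granulosa markers (12 genes) summed to at most 2.41 TPM in any embryo library.

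In mES cells the complex genes had another make-up (mES plot by library). Khdc3, Ooep and Zbed3 stood within 17 to 61 TPM, Tle6 at 8.70 to 17.4 TPM, Nlrp4f and Nlrp14 depended on the treatment, and Nlrp5, Padi6 and Zar1 stayed under 1 TPM. CX-5461-treated mES cells had higher Nlrp4f, Nlrp14 and Tle6 and lower Ooep than control mES cells. Rotenone-treated mES cells had higher Nlrp4f and Zbed3 and lower Ooep, and no member was called with rapamycin. Of these calls, those of Nlrp14, Tle6 and Zbed3 were lost under quantile scaling, while those of Nlrp4f and Ooep held in every alternative. Nlrp14 reached the level tested through the CX-5461 libraries.

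**Figure D2:**
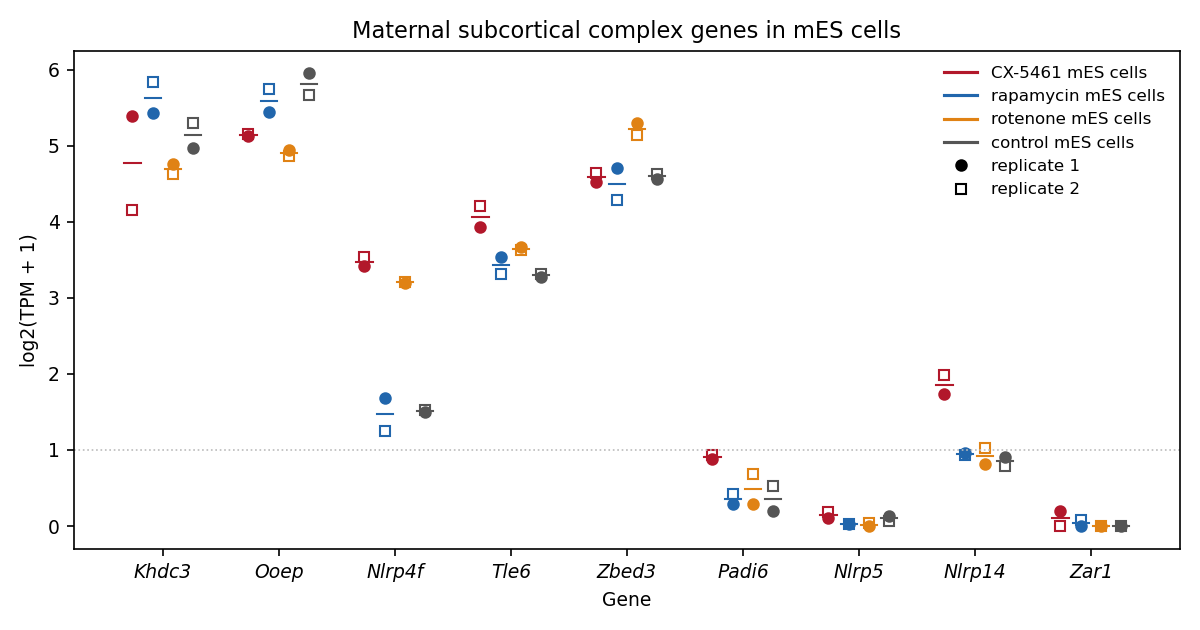
Levels of the 9 genes in mES cells, as log2(TPM + 1) per library, for CX-5461 (red), rapamycin (blue), rotenone (orange) and control (grey) cells, with symbols and dotted line as in the embryo plot. Nlrp4f stands at 8.19 to 10.6 TPM in the CX-5461 and rotenone libraries and at 1.37 to 2.22 TPM in the rapamycin and control libraries.

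Nlrp4f had 9.69 and 10.6 TPM in CX-5461 mES cells, 2.22 and 1.37 TPM with rapamycin and 8.19 and 8.28 TPM with rotenone, against 1.84 and 1.88 TPM in control mES cells. The CX-5461 and rotenone libraries were all above every rapamycin and control library. The mean was 5.45 times the control mean with CX-5461 (log2 change 1.96, SE 0.19, limma adjusted p = 0.000286) and 4.42 times with rotenone (1.69, SE 0.19, adjusted p = 0.0015). With rapamycin the log2 change was -0.05 (95% interval -0.50 to 0.40, adjusted p = 0.91). CX-5461 exceeded rapamycin (2.01, adjusted p = 0.000371), and between CX-5461 and rotenone the log2 difference was 0.27 (95% interval -0.18 to 0.72, adjusted p = 0.361). Its calls against control were kept in 13 of 13 alternatives for CX-5461 and in 13 of 13 for rotenone. Of its 75-base words 1.96% occur elsewhere, in Nlrp4g (listed at 0 in every library) and Gm47180.

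Nlrp14 had 2.32 and 2.97 TPM in CX-5461 mES cells, 0.948 and 0.904 TPM with rapamycin and 0.763 and 1.04 TPM with rotenone, against 0.873 and 0.735 TPM in control mES cells. The CX-5461 libraries stood above the other 6. The log2 change against control was 1.01 (SE 0.18, adjusted p = 0.00343), a 3.29-fold ratio of means, but Nlrp14 reached the level tested through the CX-5461 libraries, so the filter favoured this direction. CX-5461 also exceeded rapamycin (0.91, adjusted p = 0.00708) and rotenone (0.94, SE 0.18, adjusted p = 0.0115). Quantile scaling ended the call against control (0.35, adjusted p = 0.155, in a range from 0.00178 to 0.155 over 12 alternatives). Against rapamycin the call was lost without CX-5461 replicate 2 (adjusted p = 0.0727, in a range from 0.00357 to 0.121). Against rotenone it was lost without CX-5461 replicate 1 (0.0583), CX-5461 replicate 2 (0.11) or rotenone replicate 1 (0.0722), in a range from 0.00606 to 0.11.

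Tle6 had 14.3 and 17.4 TPM in CX-5461 mES cells, 10.6 and 8.98 TPM with rapamycin and 11.7 and 11.4 TPM with rotenone, against 8.70 and 8.96 TPM in control mES cells. The CX-5461 libraries were the 2 highest of the 8. Tle6 rose with CX-5461 by 0.77 on the log2 scale (SE 0.16, adjusted p = 0.00602, ratio of means 1.8). With rotenone the change was 0.35 (SE 0.16, adjusted p = 0.115). CX-5461 exceeded rapamycin by 0.64 (adjusted p = 0.017), and its difference from rotenone was 0.42 (95% interval 0.05 to 0.79, adjusted p = 0.101). Against control the call was lost without CX-5461 replicate 2 (adjusted p = 0.0501) and under quantile scaling (0.09, adjusted p = 0.617), in a range from 0.00529 to 0.617 over 13 alternatives. Against rapamycin it was lost without CX-5461 replicate 2 (adjusted p = 0.119), without rapamycin replicate 2 (0.0923) and under quantile scaling (0.342), in a range from 0.0145 to 0.342.

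Ooep moved the other way, at 34.0 and 34.7 TPM in CX-5461 mES cells, 42.5 and 52.7 TPM with rapamycin and 29.7 and 28.1 TPM with rotenone, against 61.0 and 49.9 TPM in control mES cells. The CX-5461 and rotenone libraries were below all rapamycin and control libraries, and rapamycin and control overlapped. The log2 change was -0.67 with CX-5461 (SE 0.15, adjusted p = 0.0086, ratio of means 0.619) and -0.91 with rotenone (SE 0.15, adjusted p = 0.00483, ratio 0.521). Both calls were kept in all 13 alternatives of each. CX-5461 was also below rapamycin (-0.45, adjusted p = 0.0479), a call kept in 6 of 14 alternatives, which ended without CX-5461 replicate 1 (adjusted p = 0.166), without CX-5461 replicate 2 (0.163) and without rapamycin replicate 2 (0.234), in a range from 0.0156 to 0.234. Between CX-5461 and rotenone the difference was 0.24 (95% interval -0.11 to 0.59, adjusted p = 0.297).

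Zbed3 had 22.0 and 24.0 TPM in CX-5461 mES cells, 25.1 and 18.6 TPM with rapamycin and 38.3 and 34.4 TPM with rotenone, against 22.6 and 23.8 TPM in control mES cells. The rotenone libraries stood above the other 6, which overlapped. The log2 change with rotenone was 0.62 (SE 0.16, adjusted p = 0.0231, ratio of means 1.56), and CX-5461 was below rotenone by -0.64 (SE 0.16, adjusted p = 0.0326). With CX-5461 against control it was -0.01 (95% interval -0.40 to 0.37, adjusted p = 0.949). The rotenone call was kept in 8 of 13 alternatives: it was lost without control replicate 1 (adjusted p = 0.08), without rotenone replicate 1 (0.126), without rotenone replicate 2 (0.0728) and under median-ratio (0.0799) and quantile scaling (0.171), in a range from 0.0203 to 0.171. The difference from rotenone was lost without any one of the 4 libraries compared, at adjusted p from 0.104 to 0.178. Snora47 and Gm22661, small nucleolar RNA genes inside Zbed3, were singled out after their values were seen. Snora47 was at 0.451 and 1.00 TPM with rotenone, at 0.187 and 0.0346 TPM with CX-5461 and at 0 in rapamycin and control mES cells. Gm22661 did not follow that order, at 0.156 and 1.32 TPM with rotenone, 0.401 and 0.156 TPM with CX-5461 and 0 with rapamycin, against 0.462 and 0 TPM in control mES cells.

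Khdc3 had 40.8 and 16.8 TPM in CX-5461 mES cells, 42.2 and 56.2 TPM with rapamycin and 26.0 and 23.7 TPM with rotenone, against 30.5 and 38.3 TPM in control mES cells. The CX-5461 libraries lay on either side of both controls, 2.43-fold apart, which was the widest replicate ratio of Khdc3 in any group. The log2 change with CX-5461 was -0.37 (SE 0.37, adjusted p = 0.436). Without CX-5461 replicate 1 it was -0.98 (adjusted p = 0.0228) and without CX-5461 replicate 2 it was 0.25 (adjusted p = 0.443), in a range from 0.0228 to 0.728, and without CX-5461 replicate 1 its difference from rapamycin was -1.48 (adjusted p = 0.00992, in a range from 0.00992 to 0.503).

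Padi6 was under the level tested in mES cells, at 0.844 and 0.918 TPM with CX-5461, 0.227 and 0.338 TPM with rapamycin and 0.226 and 0.602 TPM with rotenone, against 0.147 and 0.435 TPM in controls. The CX-5461 libraries were above the other 6, and with no filter on low values the log2 change against control was 0.55 (SE 0.17, adjusted p = 0.0582). Nlrp5 was at most 0.141 TPM in any mES library, and Zar1 was listed at 0 in 6 of the 8, with 0.151 TPM in CX-5461 replicate 1 and 0.0611 TPM in rapamycin replicate 2. Part of the sequence of both genes is shared with other genes, 3.75% of the 75-base words of Nlrp5 with Nlrp5-ps and 20.7% of those of Zar1 with Gm42668 and Gm15847.

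**Figure D3:**
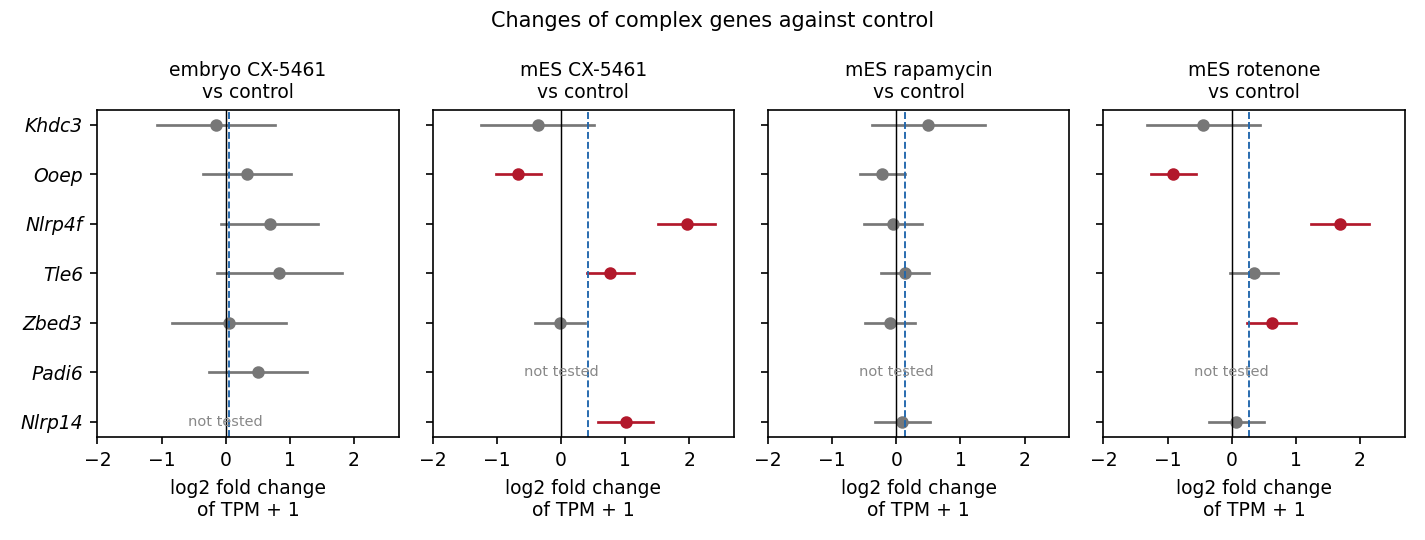
Log2 fold change (TPM + 1) of 7 complex genes against control, in embryos with CX-5461 and in mES cells with CX-5461, rapamycin and rotenone, as points with 95% intervals from limma, red where the adjusted p is under 0.05 and grey otherwise, with a dashed blue line at the median of all genes tested. Nlrp4f is at 1.96 and 1.69 and Ooep at -0.67 and -0.91 in mES cells with CX-5461 and rotenone, while in embryos each interval spans 0.

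Counted over the 6 members tested in mES cells, CX-5461 against control gave 3 higher, beside 42.0% of all 17638 genes called higher, and 1 lower, beside 11.0%. Rotenone against control gave 2 higher beside 30.6%, and 1 lower beside 9.57%. Rapamycin against control gave 0 of 6 in limma (0 of 6 at an unadjusted p under 0.05, against 2351 of all genes), beside 0% higher and 0.0113% lower. CX-5461 against rapamycin gave 3 higher beside 30.9% and 1 lower beside 8.76%, and CX-5461 against rotenone gave 1 higher beside 17.2% and 1 lower beside 4.93%. Nlrp14, which reached the level tested through the CX-5461 libraries, is 1 of the 3 higher against control, 1 of the 3 against rapamycin and the 1 against rotenone, so these counts are a description and no support for a direction of the group. All comparisons against control share the same 2 control libraries. The members' median log2 change, Nlrp14 included, was 0.38 with CX-5461, beside 0.43 over all genes, and 0.21 with rotenone, beside 0.27 over all genes.

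The median of all genes moved with the scaling, at 0.43 for CX-5461 against control with TPM totals, 0.12 with median-ratio scaling and -0.04 with quantile scaling, and at 0.27, 0.06 and 0 for rotenone. Relative to these medians Nlrp4f stayed above and Ooep below under each scaling. All 19 fibroblast markers also rose with CX-5461 and with rotenone. With rapamycin 0 of 19 were called, beside 0% of all genes called higher. Their median log2 change with rapamycin was 0.55, beside 0.13 over all genes. Their sum was 1552-1828 TPM with rapamycin, against 842-1055 TPM in control mES cells. Of 9 tested cumulus and granulosa markers 6 rose with CX-5461, and with rotenone 4 rose and 1 fell. Over all genes 42.0% were called higher with CX-5461, and 30.6% higher and 9.57% lower with rotenone. The part of these markers in the changes of the members was not tested. In embryos, which were normalized separately, 17 of the 19 fibroblast markers were under 1 TPM in all 4 libraries.

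Relatives of the members moved both up and down with CX-5461 in mES cells, as the members did. Over all genes 42.0% were called higher and 11.0% lower. Of the 10 other oocyte Nlrp genes 3 could be tested, and with CX-5461 1 rose and 2 fell. Nlrp4c rose, at 4.24 and 4.43 TPM with CX-5461, against 1.10 and 0.887 TPM in control mES cells (log2 change 1.42, SE 0.16, adjusted p = 0.000544), and also with rotenone, at 2.49 and 2.57 TPM (0.83, adjusted p = 0.00896). Nlrp9b fell, averaging 1.42 TPM with CX-5461 and 3.07 TPM in controls (-0.74, adjusted p = 0.0245), and Nlrp4a fell, averaging 1.13 TPM and 2.45 TPM in controls (-0.69, adjusted p = 0.0408). So both Nlrp4f and Nlrp4c were high in the CX-5461 and rotenone libraries, as the plot of the Nlrp4 genes shows.

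**Figure D4:**
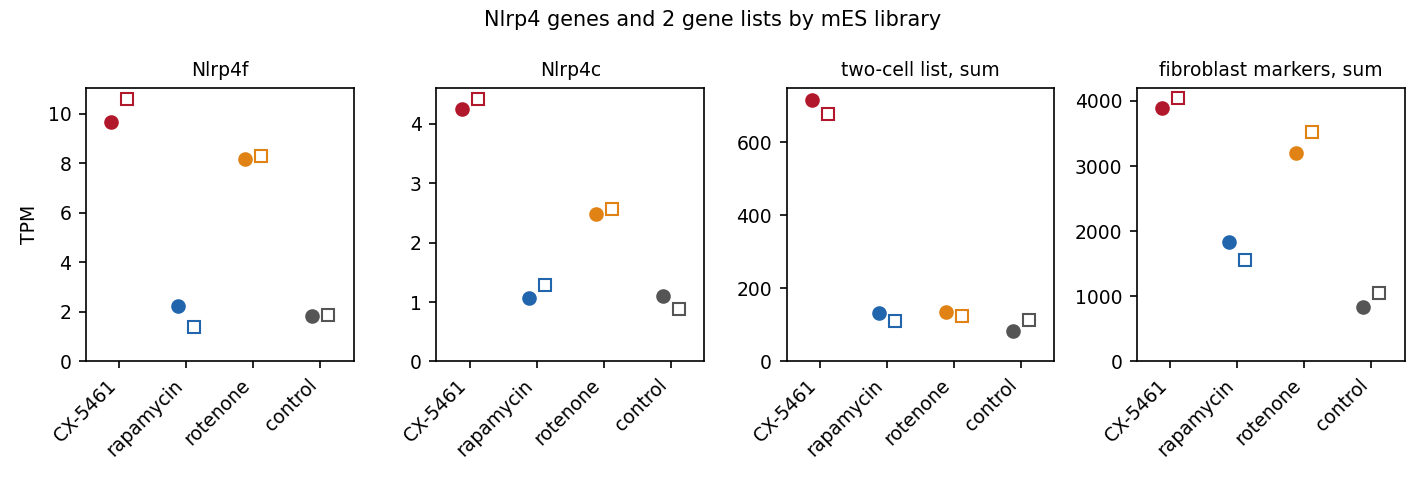
TPM of Nlrp4f and Nlrp4c and summed TPM of the two-cell gene list (18 genes) and of the fibroblast markers (19 genes) in the 8 mES libraries, with axes from 0, filled circles for replicate 1 and open squares for replicate 2. The two-cell sum is 677 to 717 TPM with CX-5461 and 84.4 to 135 TPM in the other 6 libraries, while both Nlrp4 genes and the fibroblast sum are also high with rotenone.

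Of the 17 family relatives 12 could be tested, and 3 rose and 3 fell with CX-5461, beside 42.0% and 11.0% of all genes. Padi3, which encodes a deiminase of skin and hair, averaged 7.71 TPM with CX-5461 and 2.35 TPM in controls (log2 change 1.41, adjusted p = 0.00278), while Padi4, the histone deiminase, fell to 2.73 TPM with CX-5461, against 6.90 TPM in controls (-1.07, adjusted p = 0.0061). Tle3, a full-length Groucho co-repressor, averaged 62.8 TPM with CX-5461 and 33.5 TPM in controls (0.91, adjusted p = 0.0217). Of the 30 other oocyte and maternal genes 13 could be tested, and 5 rose and 3 fell, beside the same shares of all genes. Cpeb1, which controls poly-A tails of stored oocyte mRNA, averaged 19.9 TPM with CX-5461 and 4.94 TPM in controls (1.88, adjusted p = 0.00231), and Dppa3 fell to 25.4 and 21.1 TPM with CX-5461, against 76.6 and 54.6 TPM in controls (-1.44, adjusted p = 0.00175). Astl, the egg protease ovastacin, was at 1.99 and 1.46 TPM with CX-5461 and listed at 0 in both controls, and it passed the filter through the CX-5461 libraries.

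Of the 18 two-cell genes 17 could be tested and 17 rose with CX-5461 (median log2 change 2.58), beside 42.0% of all genes. With rotenone 7 of 17 rose (median 0.57), beside 30.6% of all genes, and with rapamycin 0 of 17, beside 0%. The list holds genes that the study reported as activated by CX-5461, such as Zscan4d and Gm12794, so its counts are a description. The study, which tested read counts, reported no influence of rotenone or rapamycin on these named genes. With rotenone Gm12794 was called higher here (log2 change 1.23, limma adjusted p = 0.018) and Zscan4d was not called (-0.17, adjusted p = 0.42). Tcstv1 passed the filter through the CX-5461 libraries alone. This list and the members share no gene.

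Across the 8 mES libraries, which share treatments and 4 group means, members were ordered by the Pearson correlation of log2(TPM + 1), given as a description. Ooep and Nlrp4f ran opposite (r = -0.90), Tle6 ran with Nlrp14 (0.90) and with Nlrp4f (0.87), and Khdc3 ran with none above 0.54. The most similar genes of all 17637 compared were Pcdhb17 (0.996) and Cpeb4 (0.995) for Nlrp4f, Tmem178b (0.994) for Nlrp14, Pcca (0.972) for Zbed3 and Inafm1 (0.928) and Trpv4 (0.917) for Khdc3. Many genes reached such values: 2225 reached 0.9 with Nlrp4f, 2323 with Tle6, 1299 with Nlrp14, 483 with Ooep and 126 with Zbed3, but 7 with Khdc3.

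Set side by side, the tables were normalized separately and made by different protocols, so their levels were not tested against each other. Khdc3 averaged 691 TPM in CX-5461 embryos and 723 TPM in control embryos, with the mES groups in the order rapamycin (49.2 TPM), control (34.4), CX-5461 (28.8) and rotenone (24.9), of which the last 3 overlapped their neighbours. Ooep was of like size in both settings, at 58.0 TPM in CX-5461 embryos, 55.5 TPM in control mES cells, 47.6 TPM with rapamycin and 45.4 TPM in control embryos, each overlapping the next, then 34.3 TPM in CX-5461 mES cells and 28.9 TPM with rotenone. Nlrp4f was highest in CX-5461 embryos (11.05 TPM) and CX-5461 mES cells (10.1), which overlapped, followed by rotenone mES cells (8.24), control embryos (6.31), control mES cells (1.86) and rapamycin mES cells (1.798), of which the last pair overlapped. Zbed3 and Tle6 were lower in embryos, at 2.50 to 2.77 TPM and 2.25 to 5.26 TPM on average, than in mES cells, at 21.9 to 36.4 TPM and 8.83 to 15.9 TPM.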

How the data were processed

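RNA levels of 53715 genes had been deposited as TPM, in 1 table for mES cells (8 libraries) and 1 for embryos (4 libraries). The authors made these TPM values with StringTie: reads were trimmed (Trimmomatic), mapped to mm10 (HISAT2) and freed of duplicates (Picard), and uniquely mapped reads were used. CASAVA 1.8 is also listed in the submitters' processing notes. Reads shared by near-identical genes can be lost that way, and TPM keeps no depth. Libraries were described by the study as independent. The p-values rest on the spread between the 2 libraries of each group, pooled over all groups of a table and drawn toward the spread of other genes.

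Each library was scaled to a total of 1000000. The log2(TPM + 1) values entered limma 3.58.1 in R 4.3.3 (eBayes with intensity trend), 1 fit per table, on genes with 1 TPM or more in at least 2 libraries. Tests were two-sided and a call needed an adjusted p (Benjamini-Hochberg) below 0.05. A gene high in 1 group alone can pass that filter, and log2 changes of low genes are understated on this scale. The fit was tested on simulated data with independent normal noise drawn from its own fitted variances. That checks the computation and cannot show how well the model suits these libraries. Groups followed the labels. The 6 comparisons were each treatment against control, and CX-5461 against rapamycin and against rotenone in mES cells.

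Coordinates are GENCODE M21 (GRCm38). Shared sequence was measured in words of 75 bases, and promoters came from RefSeq. Named genes were all members, the 3 most changed called genes of each other list (or the 2 most abundant), and the 2 genes most like each member, some of which are not reported here. Genes named outside this rule, such as Patl2 with rotenone, were chosen after their values were seen. The members and lists were chosen with earlier results of these data known. Alternatives were pseudocount, filter, scaling, trend, replicate block, 2-group fits and left-out libraries.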

Additional observations from a re-analysis of the deposited data

Results flagged for a closer look

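With CX-5461, Ooep lay on opposite sides of the control mean in embryos and in mES cells. It was picked by screening all 9 members for this pattern, and how many other genes show it was not counted. In embryos its groups overlapped and its change was not called (log2 change 0.34, SE 0.29, limma adjusted p = 0.641). Set against the control mean of its own table on the log2(TPM + 1) scale, it was at 0.55 and 0.12 in the 2 CX-5461 embryo libraries and at -0.68 and -0.66 in the 2 CX-5461 mES libraries. The difference was not tested, because the tables were normalized separately, and the second CX-5461 embryo library (49.4 TPM) lay just below one control embryo library (49.6 TPM).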

How the results depend on the processing

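Of the 470 log2 changes recomputed for tested members under an alternative, 411 kept both direction and side of the threshold. An uncalled change that stayed uncalled with the same sign counts as kept, so 411 is no measure of how stable the calls were. Of the 411, 68 were from embryos and 78 from rapamycin against control, where no member was called in the main fit. In mES cells the calls of Nlrp4f and Ooep against control held, for CX-5461 and rotenone, in every alternative run. Quantile scaling left 1 member higher and 2 lower for CX-5461 against control, 1 higher for rotenone against control, 1 higher for CX-5461 against rapamycin and 0 higher for CX-5461 against rotenone. Median-ratio scaling left 1 higher for rotenone against control, and a filter at 5 TPM 0 higher for CX-5461 against rotenone, since it removes Nlrp14. The count lower was 0 for CX-5461 against rapamycin with a pseudocount of 0.1, no filter, no intensity trend or 2 groups alone, and 0 for CX-5461 against rotenone with no filter.

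Leaving out 1 library at a time, the count lower ran from 0 to 1 for embryos (1 without CX-5461 replicate 2), from 1 to 2 for CX-5461 against control, from 0 to 1 for CX-5461 against rapamycin and was 0 for CX-5461 against rotenone. The count higher ran from 1 to 2 for rotenone against control, from 1 to 3 for CX-5461 against rapamycin and from 0 to 1 for CX-5461 against rotenone. The log2 changes that crossed 0 ran in embryos from -0.70 to 0.40 (Khdc3) and -0.36 to 0.48 (Zbed3), for CX-5461 against control from -0.98 to 0.25 (Khdc3) and -0.0755 to 0.047 (Zbed3), for rapamycin from -0.31 to 0.11 (Zbed3) and -0.27 to 0.17 (Nlrp4f), for rotenone from -0.032 to 0.18 (Nlrp14), for CX-5461 against rapamycin from -0.12 to 0.29 (Zbed3) and against rotenone from -0.54 to 0.69 (Khdc3). A lone library was assumed to vary like the other groups.

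Changes that were not called also changed sign under scaling. These were Khdc3 in embryos with values as deposited (0.18), Zbed3 in embryos under quantile scaling (-0.15), Tle6 (-0.085) and Nlrp14 (-0.056) for rapamycin under quantile scaling, Nlrp14 for rotenone under median-ratio (-0.056) and quantile scaling (-0.22), Tle6 for rotenone under quantile scaling (-0.13), Zbed3 for CX-5461 against rapamycin under median-ratio (-0.13) and quantile scaling (-0.31), and for CX-5461 against rotenone Khdc3 under median-ratio (-0.0047) and quantile scaling (-0.066) and Nlrp4f under quantile scaling (-0.012). The cause was not tested.

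The labels name no culture or litter that same-numbered libraries share, so whether they were paired is not known (r of their deviations from -0.30 to 0.17). With the replicate number as a block, 0 members were lower for CX-5461 against rapamycin and 0 for CX-5461 against rotenone, and no other member call changed. With the rapamycin numbers crossed, an alternative chosen after seeing the data, 3 members were higher and 1 lower for CX-5461 against rapamycin and 0 for rapamycin against control. Median-ratio scaling with a pseudocount of 0.1 in embryos, also chosen after seeing the data, changed no call. Among all genes the block moved the embryo count from 1 to 80 higher and from 0 to 12 lower, and 438 were higher and 31 lower with the values as deposited. The 2 libraries per group and unknown depth limit every value under 1 TPM.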

Other observations

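A few oocyte genes stood highest in CX-5461 embryo replicate 2, at low levels. H1foo, the oocyte linker histone, was at 0.155 and 2.48 TPM in CX-5461 embryos, against 0.192 and 0 TPM in control embryos. Mos, the kinase that holds the egg in meiosis, was at 0.132 and 0.815 TPM in CX-5461 embryos, against 0 TPM in both control libraries, and Oosp3 was at 0 and 1.20 TPM in CX-5461 embryos, against 0 TPM in both controls. Over the 30 oocyte and maternal genes, 18 were higher in replicate 2 than in replicate 1 of the CX-5461 embryos, 9 were lower and 3 were equal, beside 53.6% of all genes tested that were higher in replicate 2, and in control embryos 13 were higher and 10 lower, beside 40.4% of all genes tested that were higher. H1foo, Mos and Oosp3 were picked after their values were seen.

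Among family relatives in embryos, Tle4, a Groucho co-repressor, was at 35.3 and 29.8 TPM in CX-5461 embryos, against 10.2 and 6.86 TPM in control embryos, and Zbed5 was at 74.6 and 57.4 TPM in CX-5461 embryos, against 34.4 and 31.6 TPM in control embryos (log2 change 0.97, SE 0.28, limma adjusted p = 0.278). Neither was called. In mES cells Patl2, the oocyte RNA-binding factor gene, was at 15.0 and 13.2 TPM with CX-5461 and at 35.9 and 39.5 TPM with rotenone, against 8.19 and 10.6 TPM in controls, with log2 changes of 0.55 (limma adjusted p = 0.0259) and 1.91 (adjusted p = 0.000702).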
